A study of Mus musculus with 227 samples.

Results

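The ataxin family genes of the mouse were followed through an RNA sequencing screen of brain-penetrant drugs. The family was taken as the rows of the count table whose symbol is Atxn1, Atxn1l, Atxn2, Atxn2l, Atxn3, Atxn7, Atxn7l1, Atxn7l3 or Atxn10, which made 9 of the 31689 genes listed, each with 1 row. The screen used primary cerebrocortical cultures, that is mixed neurons and glia dissociated from the embryonic cortex and grown in dishes. The embryos were FVB/N by C3B6F1 F1 progeny at embryonic day 16.5, and the cultures had spent 21 days in vitro when they were exposed for 8 hours. The drug groups were 218 drugs with 1 library each, and the Vehicle group was 9 libraries of cultures given 0.2% DMSO; doses were not used here. The attention to Atxn7 in Fenofibrate and Nilotinib was chosen by measured values of those libraries against Vehicle, so all values of these 2 contrasts are descriptions with no test. Fenofibrate is a fibrate that activates the lipid-sensing receptor PPAR alpha, and Nilotinib is an inhibitor of the ABL tyrosine kinase.

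Ataxins are named after the spinocerebellar ataxias, inherited disorders in which cerebellar neurons degenerate. In people, expanded CAG repeats in ATXN1, ATXN2, ATXN3 and ATXN7 lengthen a run of glutamines in the protein, while in ATXN10 the expanded repeat lies in an intron. The proteins do different jobs: ataxin-1 and its relative Atxn1l act with the repressor Capicua, ataxin-2 and Atxn2l bind RNA, ataxin-3 removes ubiquitin, and Atxn7, Atxn7l1 and Atxn7l3 belong to the deubiquitinase module of the chromatin complex SAGA or are related to its subunits.

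The mouse genes do not carry long repeats. The longest run of glutamine codons in the annotated coding sequence (GENCODE vM21, build mm10) was 6 codons in Atxn3, 5 in Atxn7, 3 in Atxn1 and Atxn2, 2 in Atxn1l and Atxn2l, and 1 in Atxn7l1, Atxn7l3 and Atxn10. The runs of the genes whose human counterparts expand, and of the related Atxn1l and Atxn2l, are shown so that their lengths can be compared. Each is the longest run anywhere in the coding sequence, and whether it lies at the site of the human repeat was not examined. The run shown starts at codon 444 of 799 in Atxn1 and at codon 1129 of 1286 in Atxn2. In Atxn3 it starts at codon 292 of 355 and in Atxn7 at codon 25 of 920. Capitals mark the CAG and CAA codons of the run and lower case the 15 bases on each side, all read 5′ to 3′ along the coding strand.
Atxn1: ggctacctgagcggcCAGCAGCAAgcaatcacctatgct
Atxn1l: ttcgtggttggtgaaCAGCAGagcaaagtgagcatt
Atxn2: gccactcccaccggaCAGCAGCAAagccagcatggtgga
Atxn2l: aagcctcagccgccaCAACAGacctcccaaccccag
Atxn3: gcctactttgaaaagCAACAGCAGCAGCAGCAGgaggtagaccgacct
Atxn7: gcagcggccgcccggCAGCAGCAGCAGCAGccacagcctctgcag
The Atxn7 stretch lies at chr14:14013141-14013185 on the plus strand, and that of Atxn1 at chr13:45567065-45567103 on the minus strand. The Atxn3 stretch, on the minus strand of chromosome 12, crosses an exon border. Atxn2 had 3 runs of its longest length and Atxn2l 7, of which 1 is shown for each.

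Across the whole series the libraries held 22.02 to 65.19 M counted reads (median 34.99 M), and the Vehicle libraries 31.4 to 43.77 M. The labels give each library 1 of 9 run codes, 3 of which hold no Vehicle library. Drug and Vehicle libraries were compared on CPM, read counts scaled to library size, with TMM, a factor that aligns library compositions and lay between 0.940 and 1.06. The cultures expressed all 5 neuron and all 5 astrocyte markers. Mog, Cx3cr1, P2ry12, Pecam1 and Cldn5, which mark oligodendrocytes, microglia and endothelium, averaged under 1 CPM. The rest of those lists averaged at least 1 CPM, that is 3 of 4 oligodendrocyte, 2 of 4 microglia and 1 of 3 endothelial markers. In such bulk samples fewer cells of a type and less RNA per cell cannot be told apart. Nothing in the labels says that the Vehicle libraries came from separate cultures, so p-values measure the spread between these libraries, which may be technical. Each drug has a single library, and intervals given for one cover counting error only, since reads copied by PCR are not independent molecules.

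All 9 genes were read in every library, from 469 reads of Atxn7l1 in the library where it was lowest to 24993 reads of Atxn10 in the library where it was highest. On the deposited RPKM scale, reads scaled to gene length and library size, which allows genes to be compared, Atxn10 stood first in Vehicle cultures at 156 ± 8.78 RPKM (SD, n = 9). Atxn2l at 41.1 ± 2.923 RPKM and Atxn7l3 at 40.9 ± 1.45 RPKM did not differ beyond their spread. Atxn2 followed at 30.9 ± 1.67 RPKM. Atxn1 at 11.9 ± 1.42 RPKM and Atxn1l at 10.6 ± 0.469 RPKM overlapped. Atxn3, at 6.498 ± 0.457 RPKM, lay above Atxn7l1 and Atxn7, which averaged 4.03 ± 0.443 and 4.03 ± 0.442 RPKM. The gene that stands out in the screen, Atxn7, was thus among the least abundant ataxin transcripts of Vehicle cultures.

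Atxn7, the SAGA subunit that anchors the deubiquitinase module to the complex, held a narrow range in nearly every culture. It stood at 65.9 CPM in Fenofibrate (2662 reads, exact binomial 95% interval 63.5 to 68.5) and at 51.5 CPM in Nilotinib (2184 reads, 49.4 to 53.8). The 9 Vehicle libraries held 29.9, 28.8, 32.1, 26.6, 26.4, 26.9, 24.9, 25.1 and 27.6 CPM, a mean of 27.6 ± 2.33 (SD, n = 9). The 2 drugs ranked first and second of all libraries and stood at 2.39 and 1.87 times the Vehicle mean, while the next highest drug, Aprepitant, was at 33.5 CPM, close to the highest Vehicle library. The lowest drug was Medroxyprogesterone Acetate at 21.2 CPM, and the median of the 218 drugs was 27.7 CPM.

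**Figure D1:**
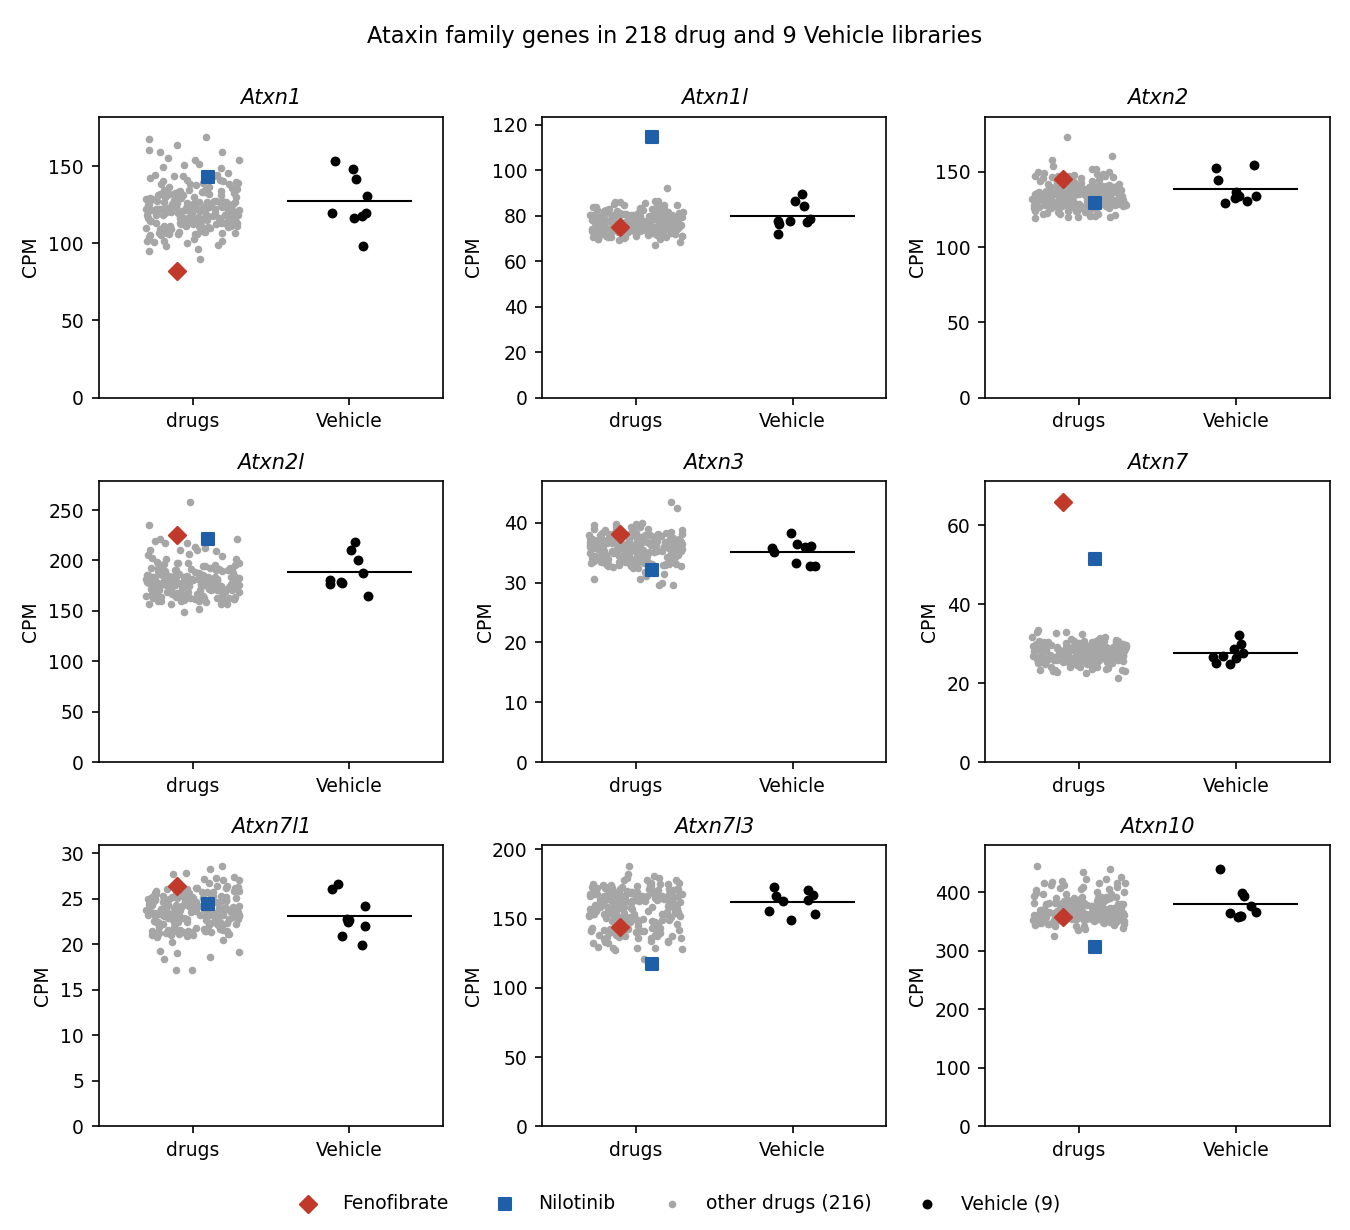
Levels of the 9 ataxin genes (CPM, TMM-scaled, linear axes from 0) in 218 drug libraries on the left of each panel and 9 Vehicle libraries on the right; red diamonds are Fenofibrate, blue squares Nilotinib, and the black line the Vehicle mean. In the Atxn7 panel Fenofibrate (65.9 CPM) and Nilotinib (51.5 CPM) sit above all other libraries, and in the Atxn1l panel Nilotinib (114 CPM) does.

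The same separation was present within the run codes. In its run, Fenofibrate held 65.9 CPM of Atxn7 against 23.4 to 31.8 CPM in the 31 other libraries, of which the 2 Vehicle libraries had 25.1 and 27.6 CPM. In its own run, Nilotinib held 51.5 CPM against 25.4 to 32.6 CPM in the 31 other libraries, and the 1 Vehicle library had 26.4 CPM. The log2 fold change of Atxn7 against Vehicle was 1.248 (SE 0.11) in Fenofibrate and 0.89 (SE 0.12) in Nilotinib. Against the other libraries with run code as a term it was 1.30 (SE 0.11) in Fenofibrate and 0.85 (SE 0.13) in Nilotinib. Atxn7 was 1 of many genes that moved this far in those cultures: 706 of 15525 genes in Fenofibrate and 1616 of 15474 genes in Nilotinib had a log2 fold change at least as large in size.

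**Figure D2:**
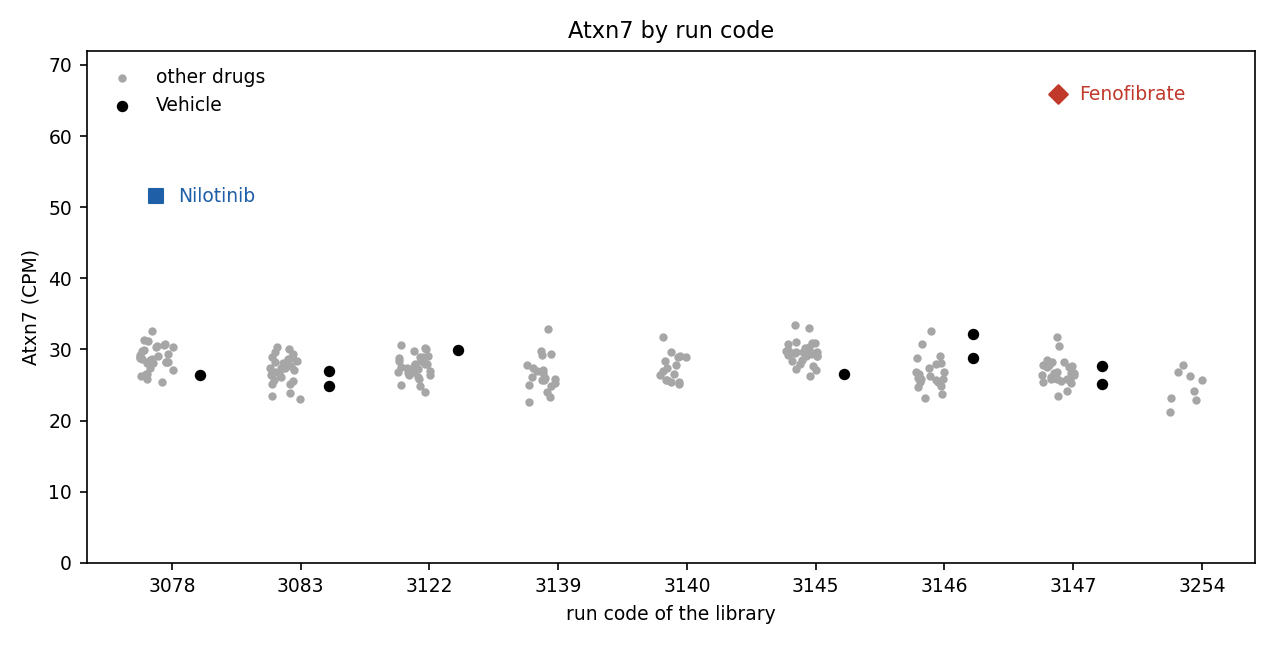
Atxn7 (CPM, linear axis from 0) by the run code of the library, with drugs on the left and Vehicle libraries on the right of each run. Outside Fenofibrate and Nilotinib, no library of any run exceeds 33.5 CPM.

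Thoc7, a subunit of the mRNA export complex THO, overlaps Atxn7 on the opposite strand. It was at 39.1 CPM in Fenofibrate and 36.8 CPM in Nilotinib, against 38.0 to 43.0 CPM in Vehicle, so it did not share the high level of Atxn7. The libraries were made with a stranded kit, but the strand setting of the counting is not given in the sources used here. Reads of Atxn1 and Gmpr, Atxn2 and Sh2b3, and Atxn7l1 and its antisense transcripts may therefore not be fully separated.

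The 250 bases before the RefSeq start of Atxn7 (build GRCm38.p6, chr14:14012241-14012490, plus strand) are shown as a description of the gene under attention. This start lies inside the GENCODE gene, which begins further upstream. Capitals mark the only match, on the minus strand, to AGGTCA, the half-site that nuclear receptors bind.
Atxn7: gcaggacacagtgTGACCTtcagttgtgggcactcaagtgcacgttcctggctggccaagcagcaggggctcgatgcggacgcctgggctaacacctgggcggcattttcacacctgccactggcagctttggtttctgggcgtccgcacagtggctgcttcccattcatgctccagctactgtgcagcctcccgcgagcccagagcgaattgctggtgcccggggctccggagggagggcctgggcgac
AGGTCA, searched on both strands, occurred in 14.02% of the 32851 promoter windows of that length, and the other motifs searched, TGACGTCA, CACGTG and TGAGTCA, had no match in this window. A window was found for 8 of the 9 genes, and that of Atxn3 also held AGGTCA. A match is a description of letters only, and its part in the level of either gene was not tested.

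The other ataxin genes did not follow Atxn7 as a group in the 2 drugs. In Fenofibrate, Atxn1 was the farthest from Vehicle after Atxn7, at 81.8 CPM, the lowest of all libraries, against 98.1 to 153 CPM in Vehicle. Its log2 fold change was -0.65 (SE 0.20), and the 31 other libraries of its run held 98.1 to 154 CPM. Gmpr, a GMP reductase gene on the strand opposite to Atxn1, was also at its lowest in Fenofibrate. Gmpr was at 13.4 CPM there and at 17.2 CPM in Nilotinib, against 21.7 to 30.2 CPM in Vehicle. In Nilotinib, by contrast, Atxn1 was at 143 CPM, within the Vehicle range. The part of shared reads was not tested. Atxn2l was at 225 CPM in Fenofibrate and 221 CPM in Nilotinib, against 164 to 218 CPM in Vehicle. The log2 fold changes of the remaining 6 genes in Fenofibrate lay between -0.18 for Atxn7l3 and 0.19 for Atxn7l1.

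In Nilotinib the highest gene next to Atxn7 was Atxn1l, the ataxin-1 relative that stabilises Capicua. It was at 114 CPM (interval 111 to 118), the highest of all libraries, against 71.9 to 89.7 CPM in Vehicle, a log2 fold change of 0.50 (SE 0.10). The next highest drug for Atxn1l, Luteolin, was at 92.0 CPM. Atxn7l3, the subunit that activates the deubiquitinase Usp22, was at 117 CPM in Nilotinib against 149 to 173 CPM in Vehicle, and Atxn10 was at 306 CPM against 357 to 439 CPM in Vehicle. Both were the lowest values of all libraries, with log2 fold changes of -0.48 (SE 0.09) and -0.32 (SE 0.11). In the run of Nilotinib the lowest of the other 31 libraries still lay above Nilotinib for Atxn7l3 and Atxn10. Atxn3 was at 32.1 CPM in Nilotinib, against 32.8 to 38.4 CPM in Vehicle and 33.1 to 39.8 CPM in the other libraries of its run. Atxn1 was at 143 CPM in Nilotinib, within the Vehicle range, so the 2 drugs lay on opposite sides of the Vehicle mean for this gene.

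Cell type markers also stood apart in these cultures. The summed neuron markers were at 3391 CPM in Fenofibrate and 3014 CPM in Nilotinib, against 3756 to 5153 CPM in Vehicle, and Nilotinib was the lowest of all drugs. The summed astrocyte markers were at 4771 CPM in Fenofibrate, the highest of all drugs, and 3332 CPM in Nilotinib, against 3205 to 4208 CPM in Vehicle. The summed precursor markers Pdgfra and Cspg4 were at 261 CPM in Fenofibrate and 53.3 CPM in Nilotinib, against 137 to 246 CPM in Vehicle. The oligodendrocyte list was at 62.5 CPM in Fenofibrate and 31.2 CPM in Nilotinib, against 33.4 to 114 CPM in Vehicle. The summed microglia, fibroblast and endothelial lists lay within the Vehicle range in both. The part of these markers in the ataxin values was not tested.

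**Figure D3:**
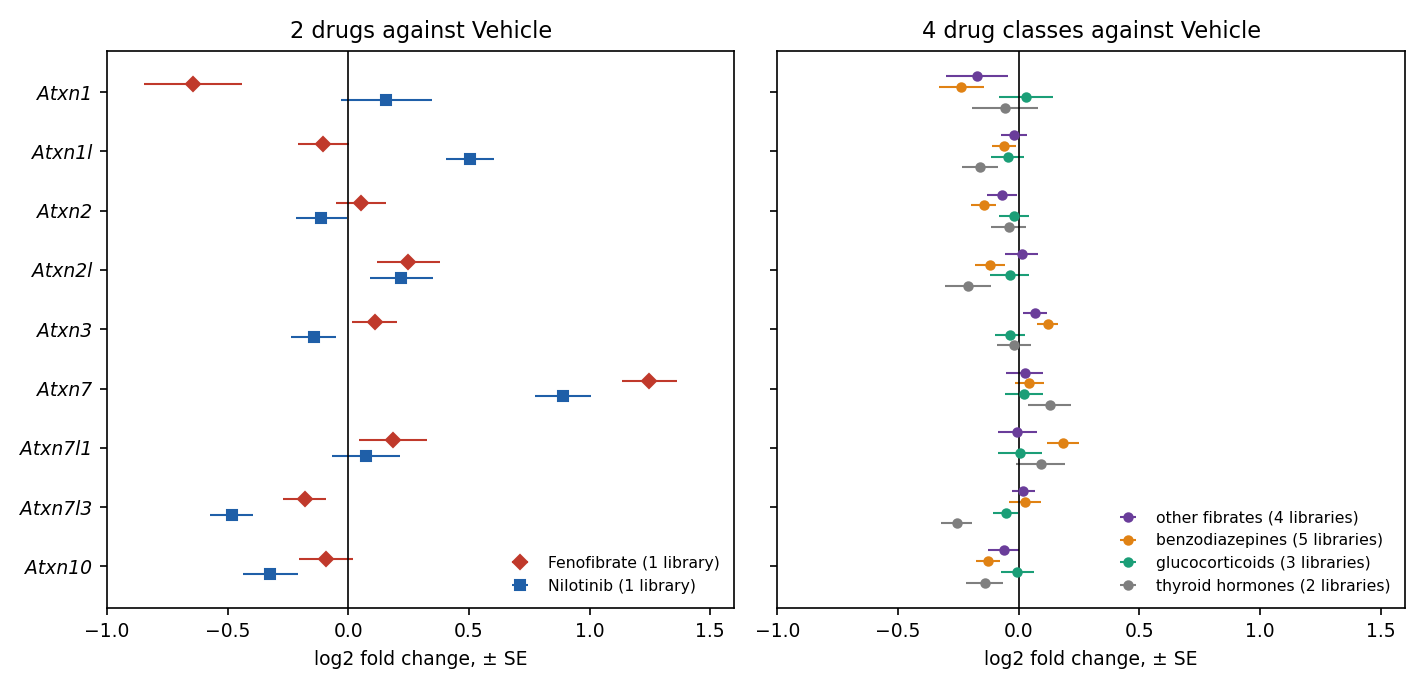
Log2 fold change against the 9 Vehicle libraries, with its standard error as a bar, for each ataxin gene in Fenofibrate and Nilotinib (left, 1 library each) and in 4 drug classes (right). Atxn7 lies at 1.248 and 0.89 on the left and between 0.02 and 0.13 on the right.

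The protein partners of the ataxins were read from lists of known partners, targets and disease genes. The first list had 9 genes, subunits of the SAGA deubiquitinase module and genes related to them. Its median log2 fold change was -0.11 in Fenofibrate and -0.09 in Nilotinib, against -0.0046 and -0.014 over all genes. Atxn7 was the 1 gene of this list with a value above 0.5 in each drug. Atxn7l3b was at -0.40 and Eny2, a small subunit shared with the export machinery, at -0.38 in Fenofibrate. The deubiquitinase genes Usp51 and Usp22 of this list were at -0.52 and -0.51 in Nilotinib. In the 18-gene SAGA core and acetyltransferase list the medians were -0.02 in Fenofibrate and -0.03 in Nilotinib. There the acetyltransferase Kat2b stood at -0.49 in Fenofibrate and 0.45 in Nilotinib, and Taf5l at 0.41 in Fenofibrate and 0.58 in Nilotinib. Supt7l was at -0.42 in Fenofibrate and Tada2b at 0.51 in Nilotinib.

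Among the 10 ataxin-1 partners and targets the transcription factor genes repressed by Capicua held the farthest values. In Fenofibrate, on the log2 scale, Etv5 was at -0.87 (SE 0.35) and Etv1 at -0.43 (SE 0.17), while Etv4 was at -0.11 (SE 0.20). In Nilotinib, Etv4 was at -0.996 (SE 0.22) and Etv1 at -0.52 (SE 0.17), while Etv5 was at -0.05 (SE 0.32). The Etv genes thus did not fall together in either drug. The nuclear receptor gene Rora was at 0.42 in Fenofibrate, and the splicing factor gene Rbm17 at 0.17 in Nilotinib. The list medians were -0.06 in Fenofibrate and -0.06 in Nilotinib. Of the 7 ataxin-2 RNA-binding partners, with medians of -0.17 in Fenofibrate and 0.04 in Nilotinib, the helicase gene Ddx6 was at -0.34, Pabpc1 at 0.21 and Rbfox1 at -0.20 in Fenofibrate. Rbfox1, a neuronal splicing regulator, was at -0.87, Nufip2 at 0.23 and the stress granule gene G3bp1 at 0.14 in Nilotinib.

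Of the 7 ataxin-3 ubiquitin partners, with medians of -0.03 in Fenofibrate and -0.20 in Nilotinib, the ubiquitin ligase gene Ube4b had a log2 fold change of 0.25 in Fenofibrate and 0.25 in Nilotinib. The ubiquitin-like modifier gene Nedd8 was at -0.09 in Fenofibrate and -0.26 in Nilotinib. The 5 other polyglutamine disease genes had medians of -0.07 in Fenofibrate and -0.19 in Nilotinib. Among them the calcium channel gene Cacna1a was at -0.45 in Fenofibrate and -0.53 in Nilotinib, and Tbp at -0.25 in Fenofibrate and 0.22 in Nilotinib.

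The 20 other spinocerebellar ataxia genes lay below 0 in 15 cases in Fenofibrate and in 14 in Nilotinib, with median log2 fold changes of -0.25 and -0.28. Elovl5, a fatty acid elongase gene, was at 0.65 in Fenofibrate. Several of these genes are neuronal, and the summed neuron markers were below all Vehicle libraries in the same 2 cultures. The part of these markers was not tested. Such counts were not particular to the 2 drugs. Of the same 20 genes, 14 lay below 0 in the other fibrates, 14 in the benzodiazepines, 15 in the glucocorticoids and 13 in the thyroid hormones. The medians of these classes were smaller in size, between -0.09 and -0.04. All these contrasts share the 9 Vehicle libraries.

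**Figure D4:**
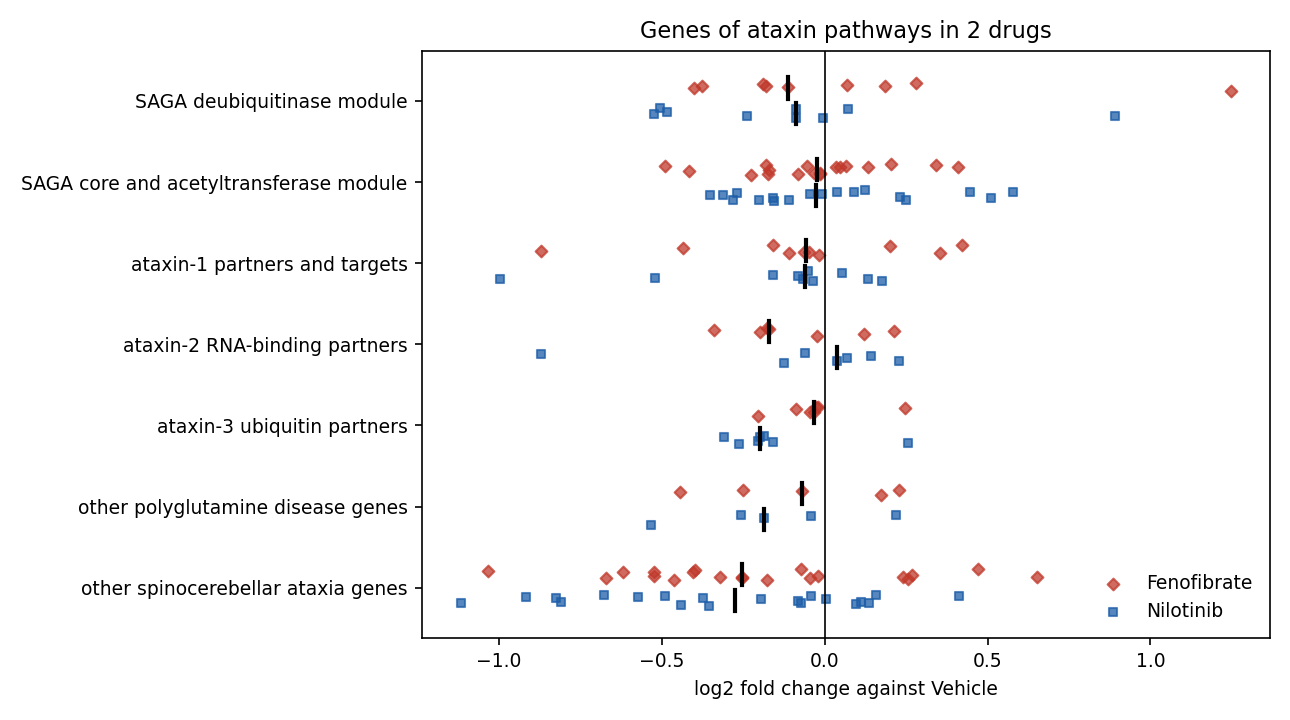
Log2 fold change against Vehicle of every gene in 7 lists around the ataxins, red diamonds for Fenofibrate and blue squares for Nilotinib; black bars are list medians. Atxn7 is the rightmost point for each drug in the first row, and most of the 20 other spinocerebellar ataxia genes lie left of 0.

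Whether any other drug moved an ataxin gene was read from the remaining drugs, each fitted against the 9 Vehicle libraries with edgeR's quasi-likelihood test over all genes. No ataxin gene passed a Benjamini-Hochberg adjusted p of 0.05 in any of these 1944 gene and drug pairs, and of all gene tests 0.0147% passed. With 1 library a drug, a pair that missed the threshold is not shown to be without change. At an unadjusted p under 0.05 there were 54 pairs, or 2.78% of them, against 3.62% of all gene tests. Most of these pairs were of Atxn7l3. The fit had no term for run code, and limma with run code gave fewer such pairs of Atxn7l3, both against Vehicle and against the other libraries. DESeq2 called 6 pairs, all falls of Atxn7l3, where 0.154% of all tests were called. These were Oxaprozin, Leucovorin Calcium Pentahydrate, Hydroxyzine Dihydrochloride, Formoterol, Nortriptyline·HCl and Orlistat, with log2 fold changes between -0.43 and -0.34. All 6 came from the 2 runs with the lowest medians of Atxn7l3, 143 and 150.4 CPM, against 155 to 167 CPM in the other runs. With run code as a term in limma none of the 6 passed, either against Vehicle (adjusted p between 0.104 and 0.638) or against the other libraries (0.220 to 0.898). Atxn7l3 held 121 CPM in Oxaprozin and 128 CPM in Leucovorin Calcium Pentahydrate, against 149 to 173 CPM in Vehicle. In these cultures the summed neuron markers were at 3205 and 3322 CPM, below the 3756 to 5153 CPM of Vehicle, and their part in the value of Atxn7l3 was not tested.

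Single libraries went outside the Vehicle range more often on the low side for some members. Of 218 drugs, 61 lay below all 9 Vehicle libraries for Atxn7l3, 63 for Atxn10 and 59 for Atxn2, where 9.90% of all drug values of all genes did. These counts do not account for run code: the 62 drugs of the 2 runs with the lowest medians gave 35 of the 61 for Atxn7l3 and 29 of the 59 for Atxn2, and for Atxn10 the 47 drugs of such runs gave 28 of the 63. In 1 run the median itself lay below all Vehicle libraries for Atxn7l3, and so it did for Atxn10. For Atxn1, 5 drugs lay below. Above all 9 Vehicle libraries lay 19 drugs for Atxn7l3, 17 for Atxn3 and 2 for Atxn10, where 9.65% of all drug values did. For Atxn7, 7 drugs lay above and 19 below, which are shares of 3.21% and 8.72%.

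Since 3 run codes hold no Vehicle library, each drug was also compared with all other libraries with run code as a term in limma. This called 8 pairs of an ataxin gene and a drug, in 6 drugs, or 0.412% of the 1944 pairs, where 0.280% of all tests passed. None of the 8 passed against Vehicle in edgeR. With run code as a term and Vehicle as the comparison limma called 6 pairs, where 0.361% of all tests passed, and 4 of the 8 were among them.

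The RNA-binding pair Atxn2 and Atxn2l was highest in Doxycycline Monohydrate, a tetracycline antibiotic. Atxn2 was at 173 CPM (interval 168 to 177) against 126 to 150 CPM in the 22 other libraries of its run, with 134 and 129 CPM in its 2 Vehicle libraries. Atxn2l was at 258 CPM (interval 253 to 264) against 167 to 221 CPM, with 178 and 179 CPM in the Vehicle libraries. Both rose, Atxn2 by a log2 fold change of 0.34 (SE 0.07, adjusted p = 0.00474, limma with run code) and Atxn2l by 0.47 (SE 0.10, adjusted p = 0.00378). The same test called both against Vehicle, at 0.31 (adjusted p = 0.0418) and 0.42 (adjusted p = 0.0369). edgeR without the run term gave adjusted p = 0.842 for both. The partner genes Pabpc1 and Lsm12 rose in the same culture, by 0.26 (adjusted p = 0.0466) and 0.41 (adjusted p = 0.0490). The fit called 0.808% of all genes there. Also higher were Cic, encoding Capicua, Atn1, Rbm17 and Rad23b, which rose by 0.34, 0.29, 0.28 and 0.30.

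Luteolin, a plant flavonoid, gave the second highest Atxn2l level. Atxn2l was at 235 CPM against 172 to 207 CPM in the 19 other libraries of its run, which holds no Vehicle library, and it rose by a log2 fold change of 0.35 (SE 0.10, adjusted p = 0.0212, limma with run code). Atxn1l was at 92.0 CPM against 71.6 to 84.0 CPM and rose by 0.25 (SE 0.08, adjusted p = 0.0464), a call lost with a filter on mean CPM (adjusted p = 0.0517). Against Vehicle with run code neither passed, with adjusted p = 0.109 for Atxn2l and 0.254 for Atxn1l. In Aminophylline, a theophylline salt, Atxn2l was at 210 CPM against 152 to 196 CPM in the 31 other libraries of its run, with 164 CPM in its Vehicle library, and rose by 0.33 (SE 0.10, adjusted p = 0.0461). This call was lost with limma-trend (adjusted p = 0.0537) and against Vehicle with run code (adjusted p = 0.176). Against all 9 Vehicle libraries, which reach 218 CPM, this library was within the range. Summed neuron markers were at 5319 CPM in Luteolin, the highest of all drugs and above the 3756 to 5153 CPM of Vehicle, and their part was not tested.

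Atxn3, the ubiquitin protease, was lowest in CP-448187 and CE-326597, compounds named by code. It was at 29.6 CPM in CP-448187 (1104 reads, interval 27.9 to 31.4) against 34.7 to 43.5 CPM in the 15 other libraries of its run, which holds no Vehicle library. It was at 29.6 CPM in CE-326597 (923 reads, interval 27.8 to 31.6) against 33.1 to 38.7 CPM in the 31 other libraries of its run, with 33.3 and 36.1 CPM in its Vehicle libraries. Atxn3 fell in both, with a log2 fold change of -0.33 (SE 0.08, adjusted p = 0.00539) in CP-448187 and of -0.30 (SE 0.08, adjusted p = 0.0183) in CE-326597, in limma with run code. Against Vehicle in the same way, CP-448187 passed (adjusted p = 0.0298) and CE-326597 did not (adjusted p = 0.0666). Both lay below the 32.8 CPM of the lowest Vehicle library. The highest Atxn3 level, 43.5 CPM, was in Diflunisal, from the same run as CP-448187, and its call did not pass.

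In Ursodiol, a bile acid, this fit called 15.2% of all genes and 13 of the 73 other list genes, so single calls there stand beside a high share. Atxn7l3 fell to 127 CPM (interval 123 to 131), against 134 to 188 CPM in the 31 other libraries of its run, with 173 and 167 CPM in the Vehicle libraries. The log2 fold change was -0.36 (SE 0.11, adjusted p = 0.0346, limma with run code). The deubiquitinase genes Usp22 and Usp27x fell in the same culture, to log2 fold changes of -0.46 (adjusted p = 0.0358) and -0.52 (adjusted p = 0.0351), while Kat2b and Supt7l rose by 0.82 (adjusted p = 0.0359) and 0.41 (adjusted p = 0.0346). The summed neuron markers were at 3438 CPM and the astrocyte markers at 4607 CPM in Ursodiol, against 3756 to 5153 CPM and 3205 to 4208 CPM in Vehicle, and their part was not tested. Among the other spinocerebellar ataxia genes called there, Cacna1g had a log2 fold change of -0.59, Elovl4 of -0.46 and Fgf14 of -0.46. Rbfox1 was at -0.56, Etv1 at -0.45 and the co-chaperone gene Stub1 at -0.16, with adjusted p between 0.0337 and 0.0456.

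Over these drugs, the 73 other list genes were called 57 times by this fit, or 0.361% of their tests, 27 up and 30 down. In edgeR against Vehicle they were called once, for Etv4 in Formoterol, which fell with a log2 fold change of -1.48 (SE 0.23, adjusted p = 0.0348). The run fit called Etv4 in Formoterol as well, at -1.19 (adjusted p = 0.0300), together with the channel gene Kcnd3 at -0.41, among 0.763% of all genes. In Formoterol the summed neuron markers were at 3386 CPM and the oligodendrocyte markers at 27.6 CPM, against 3756 to 5153 CPM and 33.4 to 114 CPM in Vehicle, and their part was not tested.

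Other calls of list genes in this fit, given as log2 fold changes, lay in further drugs, in which the fit called 7.19% of all genes for Luteolin, 4.85% for Aminophylline, 4.22% for CP-448187, 3.56% for CE-326597, 4.259% for Ciprofibrate and 7.97% for Naloxone·HCl. In Luteolin, Nufip2 was at 0.32, Tada2b at 0.37, Rad23b at 0.27, the autophagy gene Becn1 at 0.22, Tardbp at -0.21 and Taf9b at -0.33. In Aminophylline, Nop56 was at 0.47, Tada2b at 0.28, Tbp at 0.22 and Pum2 at 0.16. In CP-448187, Nop56 was at 0.41, Tada1 at 0.37 and Hdac3 at 0.18. In CE-326597, Taf10 was at 0.43 and Ube4b at -0.33.

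Ciprofibrate, a fibrate, came from a run that holds no Vehicle library. Its comparison with Vehicle in limma with run code therefore rests on Vehicle libraries of other runs. In Ciprofibrate, Dab1 was at -0.43, Tada1 at -0.29, Taf9b at -0.27, Atxn7l3b at -0.17, Nedd8 at -0.15 and Ube4b at 0.31. Atxn1 was at 89.5 CPM in Ciprofibrate (interval 86.6 to 92.5), and it was called against Vehicle in limma with run code, at -0.52 (SE 0.17, adjusted p = 0.0405). Against the other libraries it was at -0.47, with adjusted p = 0.0590, and with adjusted p = 0.0404 once Fenofibrate and Nilotinib were left out of the comparison. In Naloxone·HCl, an opioid receptor antagonist, Pdyn, encoding the opioid peptide precursor prodynorphin, was at -0.81, Rbfox1 at -0.57, Itpr1 at -0.42 and Becn1 at -0.20. Atxn7l3 was at 136 CPM there and was called against Vehicle only with run code as a term, at -0.31 (SE 0.11, adjusted p = 0.0390). The summed neuron markers were at 3567 CPM in Naloxone·HCl, against 3756 to 5153 CPM in Vehicle, and their part was not tested. In Carvedilol Plekhg4 was at 1.03, in Mitoxantrone·HCl Dab1 at -0.46, in Dexamethasone Rora at 0.68, in Levothyroxine·Na Eef2 at 0.21 and in Liothyronine·Na Elovl5 at 0.40.

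Drugs of a shared class give several libraries that did not choose Atxn7. These are different drugs with 1 library each, not replicates of a treatment, so the class p-values include differences between drugs. Among the other fibrates, Bezafibrate, Clofibrate and Ciprofibrate came from the same run, which holds no Vehicle library. In the 4 other fibrates Atxn7 was at 25.4 CPM in Gemfibrozil, 26.5 in Bezafibrate, 31.8 in Clofibrate and 29.1 in Ciprofibrate, all within the 24.9 to 32.1 CPM of Vehicle. The log2 fold change of the class was 0.02 (SE 0.08, adjusted p = 0.969, edgeR), against the 1.248 of Fenofibrate. Doses were not used here, so Fenofibrate and the other fibrates are set side by side only. Atxn1 was at 139 CPM in Gemfibrozil, 123 in Bezafibrate, 102 in Clofibrate and 89.5 in Ciprofibrate, against 98.1 to 153 CPM in Vehicle, and the class had a log2 fold change of -0.17 (SE 0.13, adjusted p = 0.819). No ataxin gene was called in the other fibrates by edgeR, where 0% of 14885 genes were, nor by DESeq2 or by limma with run code. None of the 9 had an unadjusted p under 0.05 in edgeR, where 7.38% of all genes did.

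In the 5 benzodiazepines, drugs that enhance GABA-A receptor currents, edgeR called no ataxin gene, while 3.86% of all genes were called. Of the 9 genes, 5 had an unadjusted p under 0.05, and 20.3% of all genes did. Atxn10 was at 339 CPM in Clonazepam, 349 in Lorazepam, 352 in Oxazepam, 343 in Temazepam and 351 in Triazolam, below all Vehicle libraries at 357 to 439 CPM. Its log2 fold change was -0.13 (SE 0.05, adjusted p = 0.179). Atxn1 was at -0.24 (SE 0.09, adjusted p = 0.164), Atxn2 at -0.14 (SE 0.05, adjusted p = 0.133), Atxn3 at 0.12 (SE 0.04, adjusted p = 0.129) and Atxn7l1 at 0.18 (SE 0.07, adjusted p = 0.137).

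With run code as a term limma called 4 ataxin genes in the benzodiazepines, where 11.1% of all genes were called. Atxn1, Atxn2 and Atxn10 fell, with log2 fold changes of -0.25 (adjusted p = 0.0396), -0.14 (adjusted p = 0.0178) and -0.11 (adjusted p = 0.0406), and Atxn7l1 rose by 0.18 (adjusted p = 0.0174). DESeq2 called none of the 9. Atxn1 also passed in edgeR when Vehicle replicate 2 was left out, at -0.28 (adjusted p = 0.0499). Of the list genes, Etv5 fell with a log2 fold change of -1.05 (SE 0.16, adjusted p = 0.00560) and Ube4b rose by 0.20 (SE 0.05, adjusted p = 0.0386) in the class, by edgeR.

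In the thyroid hormones Levothyroxine·Na and Liothyronine·Na, edgeR called no ataxin gene, where 1.30% of all genes were called. In the same fit 21.2% of all genes had an unadjusted p under 0.05, and 1 of the 9 ataxin genes did. That gene, Atxn7l3, was at 140 CPM in Levothyroxine·Na and 132 CPM in Liothyronine·Na, below all Vehicle libraries at 149 to 173 CPM, with a log2 fold change of -0.26 (SE 0.06, adjusted p = 0.0757). The summed neuron markers were at 4000 CPM in Levothyroxine·Na and 3703 CPM in Liothyronine·Na, against 3756 to 5153 CPM in Vehicle, and the astrocyte markers at 4217 and 4553 CPM, against 3205 to 4208 CPM in Vehicle; their part in the value of Atxn7l3 was not tested. DESeq2 called Atxn7l3 at -0.26 (adjusted p = 0.00602), where 6.59% of all genes were called. With run code as a term in limma it was at -0.13 (adjusted p = 0.735) and no ataxin gene was called. Etv4 and Etv5 fell, with log2 fold changes of -0.84 (SE 0.15, adjusted p = 0.0215) and -1.28 (SE 0.25, adjusted p = 0.0315), and Elovl5 rose by 0.43 (SE 0.06, adjusted p = 0.00645), by edgeR. Both hormone libraries came from the same run, which holds 1 Vehicle library, so edgeR and DESeq2 do not separate the class from that run. The median of that run for Atxn7l3 was 143 CPM, the lowest of the run medians. In the 3 glucocorticoids no ataxin gene was called by edgeR, where 0.0134% of all genes were, or by DESeq2 or limma with run code. None of the 9 had an unadjusted p under 0.05 in edgeR, where 3.51% of all genes did, and their log2 fold changes lay between -0.05 and 0.03. Atxn7 was at 0.13 (SE 0.09) in the thyroid hormones, 0.04 (SE 0.06) in the benzodiazepines and 0.02 (SE 0.08) in the glucocorticoids. In the classes, no gene of the SAGA lists, the ataxin-2 partners or the other polyglutamine disease genes passed in edgeR.

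The ataxin genes also varied with run code. All 9 were called in limma's F test over the 9 run codes, as were 91.9% of all genes. Run code took from 0.127 of the variance for Atxn1l to 0.304 for Atxn7l3, against a median of 0.235 over all genes. Within Vehicle, the coefficient of variation ran from 5.06% for Atxn7l3 to 13.9% for Atxn1, against a median of 10.6% over all genes.

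Over all drug and Vehicle libraries, centred on the median of their run code, the ataxin genes fell into opposite patterns. Atxn2 and Atxn2l varied together (Spearman rho 0.63), as did Atxn2 and Atxn10 (0.60) and Atxn1 and Atxn2 (0.58). Atxn7 ran against Atxn10 (-0.60) and Atxn7l3 (-0.59), and Atxn7l1 against Atxn10 (-0.58). The points share libraries, and the part of cell composition in these values was not tested. With the summed neuron markers rho was 0.79 for Atxn7l3, 0.55 for Atxn1, 0.53 for Atxn10 and -0.64 for Atxn7. With the summed astrocyte markers it was -0.53 for Atxn7l3 and 0.37 for Atxn7. Against library depth rho lay between -0.05 and 0.19 for the 9 genes. These values are descriptions over libraries that share runs.

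**Figure D5:**
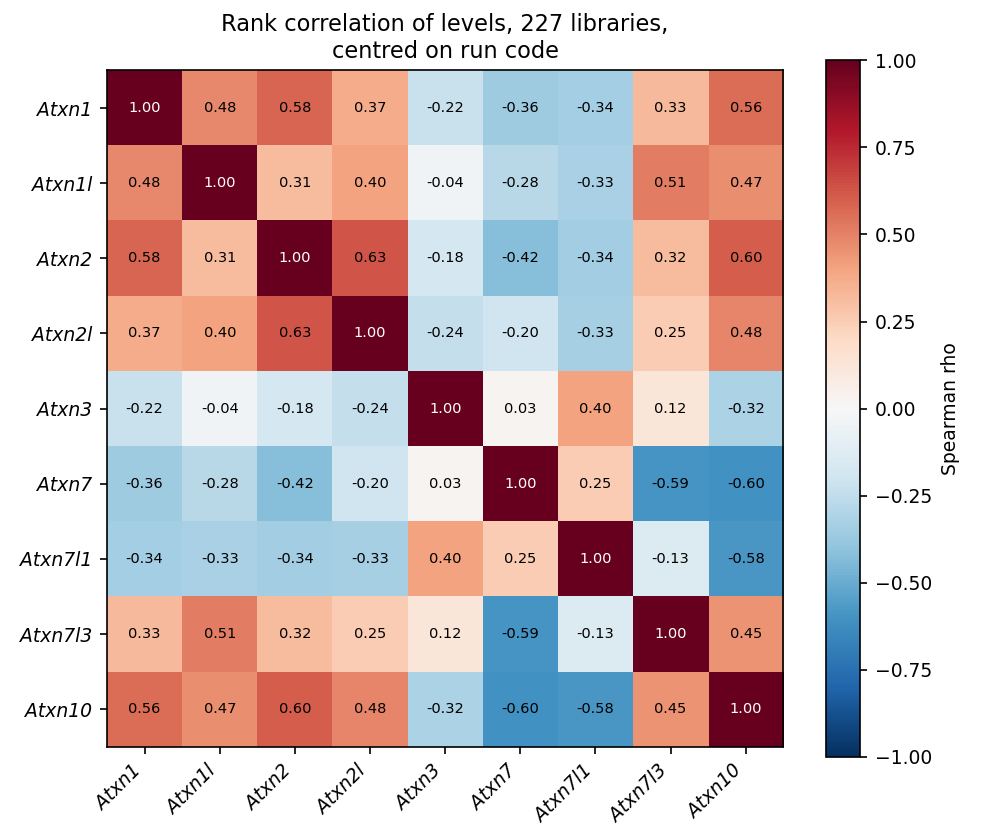
Spearman rho between the levels of each pair of ataxin genes over all 218 drug and 9 Vehicle libraries, after centring log2 CPM on the median of the run code; red is positive and blue negative. Atxn7 has rho of -0.59 with Atxn7l3 and -0.60 with Atxn10, while Atxn2 and Atxn2l have 0.63.

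The genes whose levels were most like those of each ataxin were taken from 13024 genes as the 3 with the highest rho. For Atxn7 they were Ptpn21 (0.73), Arhgap17 (0.72) and Qser1 (0.72), a tyrosine phosphatase, a GTPase activator and a glutamine- and serine-rich protein. For Atxn7l3 they were Dnm1 (0.91), Adap1 (0.90) and Fam131b (0.90), of which Dnm1 encodes the synaptic vesicle GTPase dynamin. For Atxn7l1 they were Vps33a (0.69), Hist3h2a (0.67) and Pkia (0.67). For Atxn10 they were Cap1 (0.86), Smap1 (0.86) and Nppc (0.86), and Nppc encodes C-type natriuretic peptide.

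For Atxn1 they included Dip2c (0.78) and Mdga2 (0.76). For Atxn1l they were A830010M20Rik (0.71), the taurine transporter gene Slc6a6 (0.71) and the kinase gene Braf (0.70). For Atxn2 they were R3hdm2 (0.75), the postsynaptic scaffold gene Dlgap4 (0.75) and Cacna1a (0.72). For Atxn2l they were Gars, encoding glycyl-tRNA synthetase (0.66), Asns, encoding asparagine synthetase (0.66), and the ubiquitin ligase gene Siah2 (0.65). For Atxn3 they were Rmnd5a (0.64), the autophagy gene Rb1cc1 (0.64) and Runx1t1 (0.62). The median rho of each ataxin with all genes lay between -0.04 and 0.03.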

How the data were processed

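RNA was sequenced in 218 drug and 9 Vehicle libraries of mouse cortical cultures. The authors deposited whole-number read counts per gene and an RPKM table computed from them. Per the submitters' processing notes build mm10 was used and Subread 1.4.6, STAR 2.4.0, edgeR 3.10.5 and limma are listed, with no role given for each. Groups came from the agent labels and run codes from the library titles. The counts were tested with edgeR 4.0.16 (filterByExpr, TMM, quasi-likelihood), with limma 3.58.1 (voom) where run code was a term, and with DESeq2 1.42.0 as an alternative, in R 4.3.3, with Benjamini-Hochberg adjustment over all genes tested and a threshold of 0.05. Each fit used the whole table; the scripts were tested on simulated data. Ataxin genes and pathway lists were chosen with earlier results of these data known. Named genes are the 9 ataxins, list genes past the threshold, up to 3 list genes of largest change per list in Fenofibrate and Nilotinib, the extreme drugs and the 3 genes of highest rho; some that this rule names are not reported here. Patterns used genes averaging at least 1 CPM.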

Additional observations from a re-analysis of the deposited data

Results flagged for a closer look

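1 value stood far from the rest of its group. Atxn10 was at 439 CPM in Vehicle replicate 8, against 357 to 398 CPM in the 8 other Vehicle libraries. Its gap to the next library was 0.507 of the range of the group, above the critical value of 0.493 of Dixon's test for 9 libraries. It was the only flag among 27 groups of values tested, the 9 ataxin genes in Vehicle, the other fibrates and the benzodiazepines, and chance flags about 1 in 20 groups.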

How the results depend on the processing

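Pairs of an ataxin gene and a drug called against Vehicle were counted over the drugs other than Fenofibrate and Nilotinib. The count was 0 in edgeR, with RLE factors and with no filter. It was 6 in DESeq2, all of Atxn7l3, and 6 in limma with run code as a term. The cause was not tested. In the benzodiazepines the count of ataxin genes called was 0 in edgeR and 4 in limma with run code, and leaving out 1 library gave 0 to 1. In the thyroid hormones it was 0 in edgeR and 1 in DESeq2. Against the other libraries with run code the count of pairs stayed within 7 to 9. Without Vehicle replicates in turn, the log2 fold change of Atxn7 ranged from 1.23 to 1.28 in Fenofibrate and from 0.87 to 0.93 in Nilotinib, and under the other settings from 1.24 to 1.30 and from 0.85 to 0.90. Of the 27 nearest genes, 11 were among the nearest 3 without centring on run code. Counting CPM by library total, the drugs below all Vehicle libraries were 77 for Atxn1l, 12 for Atxn7, 8 for Atxn1 and 6 for Atxn3, against 22, 19, 5 and 15 with TMM, and those above were 28 for Atxn3, 17 for Atxn7l1 and 4 for Atxn1l, against 17, 10 and 2. No paired analysis was possible because drug and Vehicle libraries share at most 1 replicate number: each drug has 1 library. The single library per drug limits every value.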
